A study of Mus musculus with 6 samples.

Results

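The 4 skin connexin genes Gja1, Gjb2, Gjb5 and Gjb6 were measured by 9 of the 45037 non-control probe sets of the array, chosen as all probe sets whose platform annotation names 1 of these genes alone. Gja1 had 6 probe sets, and Gjb2, Gjb5 and Gjb6 had 1 each. Total RNA came from the same region of back skin of 3 Get1 -/- and 3 Get1 +/+ mouse embryos at e18.5, with 1 array per animal. Get1, now called grainyhead-like 3 (Grhl3), encodes a transcription factor of surface epithelia, and the comparison asks which skin transcripts depend on it. The labels give no strain, sex, litter or treatment, and do not say which part of the gene the Get1 -/- animals lack.

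Connexins are membrane proteins that assemble into rings, and the rings of neighbouring cells dock into gap junctions, channels that pass ions and small molecules from cell to cell. Keratinocytes express several connexins whose mixture changes as cells leave the basal layer and differentiate. Gja1 encodes Cx43, the most widely expressed connexin, which is made by keratinocytes and also by fibroblasts, muscle precursors and vessel walls. Gjb2 (Cx26) and Gjb6 (Cx30) are closely related, lie on chromosome 14 with 1 annotated gene between them in the RefSeq order, and are known from wounded and hyperproliferative epidermis. In humans, mutations of either cause hearing loss and skin disease. Gjb5 (Cx31.1) is a connexin of stratified epithelia and lies near Gja4 on chromosome 4.

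The sequences just upstream of these genes are shown because the factor missing from the Get1 -/- animals is a DNA-binding protein. Each is the 250 bases before the annotated start in RefSeq (GRCm38.p6), written 5′ to 3′ on the gene's strand, with matches to the searched motifs in capitals.
Gja1, chr10:56377050-56377299, plus strand: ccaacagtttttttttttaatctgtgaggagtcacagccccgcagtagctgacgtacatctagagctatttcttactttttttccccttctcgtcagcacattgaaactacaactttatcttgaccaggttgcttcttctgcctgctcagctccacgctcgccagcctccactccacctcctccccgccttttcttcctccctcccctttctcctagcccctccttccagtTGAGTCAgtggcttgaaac
Gjb2, chr14:57104703-57104952, minus strand: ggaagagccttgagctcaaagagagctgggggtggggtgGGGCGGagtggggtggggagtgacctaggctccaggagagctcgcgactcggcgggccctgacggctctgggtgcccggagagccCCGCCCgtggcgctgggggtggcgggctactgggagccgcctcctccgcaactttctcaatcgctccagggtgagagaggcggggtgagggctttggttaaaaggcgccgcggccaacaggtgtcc
Gjb5, chr4:127358165-127358414, minus strand: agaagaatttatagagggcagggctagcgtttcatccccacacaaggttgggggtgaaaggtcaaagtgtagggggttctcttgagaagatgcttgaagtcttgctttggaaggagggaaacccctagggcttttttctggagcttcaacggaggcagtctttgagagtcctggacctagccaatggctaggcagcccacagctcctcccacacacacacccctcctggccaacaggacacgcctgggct
Gjb6, chr14:57133612-57133861, minus strand: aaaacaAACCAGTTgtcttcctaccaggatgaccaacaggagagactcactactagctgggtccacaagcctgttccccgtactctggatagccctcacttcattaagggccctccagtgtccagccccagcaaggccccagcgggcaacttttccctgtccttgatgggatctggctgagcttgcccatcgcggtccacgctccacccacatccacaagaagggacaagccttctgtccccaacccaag

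Motifs were searched on both strands of these windows and of all 32851 RefSeq promoter windows of the same length. The grainyhead consensus AACCGGTT, a palindrome, occurred in 0 of the 4 windows and in 0.116% of all windows. AACNGGTT, which leaves 1 base free and contains the consensus, matched in Gjb6 alone of the 4, as AACCAGTT from 244 to 237 bases before the start, and in 1.79% of all windows. TGANTCA, the site of the AP-1 factors, matched in Gja1 alone, as TGAGTCA from 19 to 13 bases before the start, and in 6.75% of all windows. GGGCGG, the GC box, matched in Gjb2 alone, at 211 to 206 and 126 to 121 bases before the start, and in 32.7% of all windows. The Gjb2 window was also the richest of the 4 in G and C, at 69.2%, against 50%, 54.4% and 56.8% for Gja1, Gjb5 and Gjb6 and a median of 52.4% over all windows. These matches describe letters in a window and not binding.

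All values below are MAS5 signals in arbitrary units, which the authors had scaled to the same trimmed mean on every array, and group values are means ± SD (n = 3 per genotype). Signals of different probe sets are not comparable with each other as levels. The Grhl3 probe set read 246, 413 and 380 in Get1 -/- skin, against 478, 934 and 670 in Get1 +/+ skin. Every Get1 -/- array thus lay below every Get1 +/+ array, as in 6.51% of all kept probe sets. The log2 change of Grhl3 was -0.98 ± 0.29 (SE), with an adjusted p of 0.737 in limma over all kept probe sets. A probe set outside the deleted part would check nothing about the genotype.

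In Get1 -/- skin the fitted Gjb2 and Gjb6 signals were 0.61 and 0.59 times those of Get1 +/+ skin. The 4 brightest Gja1 probe sets and Gjb5 lay between 0.87 and 0.92 times, and the remaining Gja1 probe sets at 0.56 and 0.41 times. None of these differences passed an adjusted p under 0.05 (limma, Benjamini-Hochberg over the 22519 probe sets kept for their signal). All 9 connexin probe sets were among those kept. Of the 9, 0 passed, against 0.0266% of all kept probe sets, and the smallest adjusted p was 0.737, a value that several probe sets share because the adjustment ties neighbouring ranks. At an unadjusted p under 0.05, 3 of the 9 were lower (those of Gjb2, Gjb6 and 1 of Gja1), against 3.76% of all kept probe sets. All 9 estimates were below 0, against 49.8% of all kept probe sets, but 6 of the 9 measure 1 gene. Their median log2 change was -0.20, against 0.0015 over all kept probe sets.

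**Figure D1:**
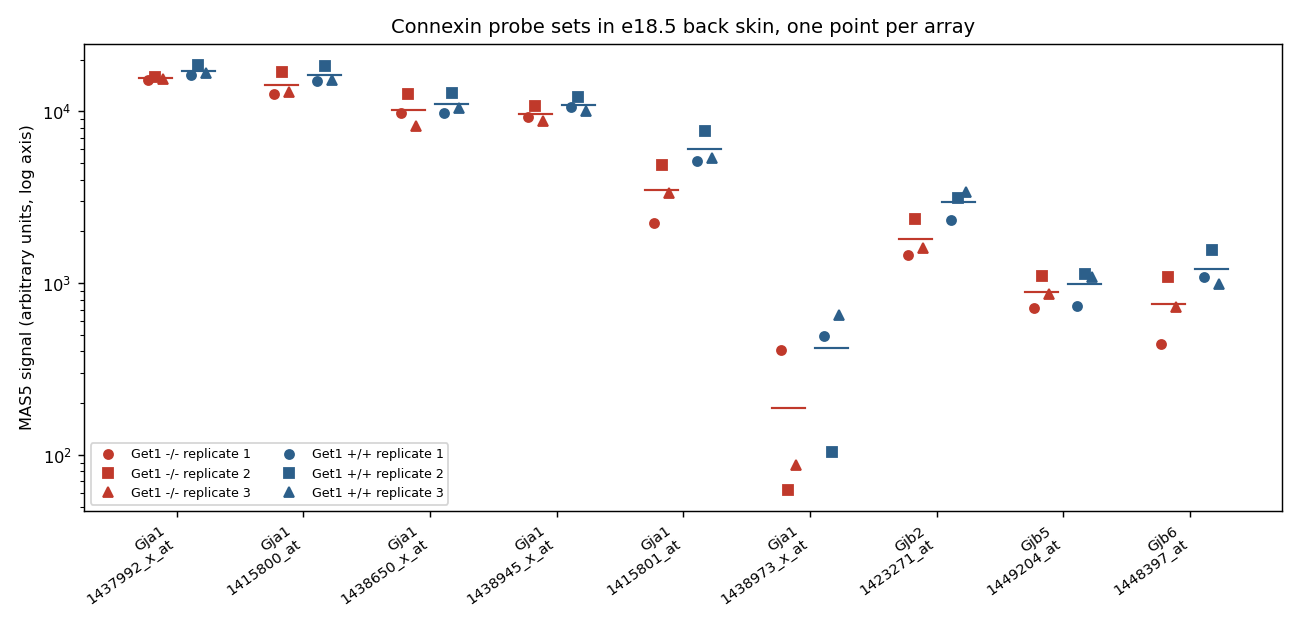
MAS5 signal (arbitrary units, log axis) of the 9 connexin probe sets, with 1 point per array, Get1 -/- in red to the left of Get1 +/+ in blue, marker shapes for replicate numbers and bars for group means. The genotypes are apart without overlap for the Gja1 probe sets 1437992_x_at and 1415801_at, and overlap in the other 7.

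Gjb2 read 1459, 2363 and 1589 in Get1 -/- skin, against 2314, 3132 and 3392 in Get1 +/+ skin. A single Get1 -/- array, replicate 2, lay above the lowest Get1 +/+ array, replicate 1, and the remaining Get1 -/- arrays lay below all 3. The means were 1804 ± 488 in Get1 -/- and 2946 ± 562 in Get1 +/+ skin, and the log2 change was -0.72 ± 0.22 (SE), with a 95% interval from -1.23 to -0.22. In fold terms the interval ran from 0.43 to 0.86 times the Get1 +/+ signal. Only 2.03% of kept probe sets had a lower log2 change. The adjusted p was 0.737 (limma), and the exact permutation test over arrays gave p = 0.2 (two-sided), where 0.1 is the smallest that 3 against 3 arrays allow.

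Gjb6 read 441, 1090 and 728 in Get1 -/- skin, against 1083, 1558 and 985 in Get1 +/+ skin. Replicate 2 of Get1 -/- skin again reached the range of Get1 +/+ skin, while replicate 1 was the lowest array. The means were 753 ± 325 in Get1 -/- and 1209 ± 307 in Get1 +/+ skin, and the log2 change was -0.75 ± 0.32 (SE), with a 95% interval from -1.48 to -0.017 and an adjusted p of 0.737 (limma). The exact permutation p was 0.3 (two-sided). Without Get1 -/- replicate 1 the log2 change was -0.41, and without Get1 -/- replicate 2 it was -1.06, so the size of the Gjb6 difference rests on which of these arrays is included. For Gjb2 the same omissions gave -0.59 and -0.93. Between arrays of the same replicate number (1, 2 and 3), Get1 -/- minus Get1 +/+ came to -0.67, -0.41 and -1.09 for Gjb2 and to -1.30, -0.52 and -0.44 for Gjb6 on the log2 scale. Of the 9 connexin probe sets 8, all but Gja1 1438650_x_at, were lower in Get1 -/- skin in 3 of 3 such pairs, against 17.1% of all kept probe sets. However, 6 of the 9 measure 1 gene, Gja1, in the same RNA, and Gjb5 differed by only -0.039, -0.036 and -0.34. With the pairs as a block the adjusted p was 0.232 for Gjb2 and 0.311 for Gjb6 (limma).

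Gjb5 read 713, 1098 and 859 in Get1 -/- skin, against 732, 1125 and 1086 in Get1 +/+ skin. The ranges lay almost on top of each other, with means of 890 ± 194 in Get1 -/- and 981 ± 216 in Get1 +/+ skin. The log2 change was -0.14 ± 0.23 (SE), with a 95% interval from -0.66 to 0.39 and an adjusted p of 0.929 (limma). The exact permutation p was 0.6 (two-sided). The interval leaves room for a Gjb5 signal between 0.63 and 1.31 times that of Get1 +/+ skin. On its chromosome 265 annotated genes lie between Gjb5 and Grhl3.

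The 6 Gja1 probe sets differed in the size of their change. The brightest, 1437992_x_at, read 15291, 15898 and 15411 in Get1 -/- skin, against 16275, 18536 and 16627 in Get1 +/+ skin. These values did not overlap, yet the log2 change was small, at -0.14 ± 0.098 (SE, adjusted p = 0.795 in limma). Of 3 further bright probe sets, 1415800_at averaged 14141 ± 2367 in Get1 -/- and 16169 ± 1855 in Get1 +/+ skin, 1438650_x_at 10182 ± 2235 in Get1 -/- and 11003 ± 1599 in Get1 +/+ skin, and 1438945_x_at 9619 ± 1026 in Get1 -/- and 10930 ± 1002 in Get1 +/+ skin. Their log2 changes lay between -0.20 and -0.12, and the genotypes overlapped in all 3. The 3′ to 5′ signal ratio of the beta-actin controls, a sign of RNA quality, was 1.44, 1.49 and 1.36 in Get1 -/- skin, against 1.35, 1.36 and 1.37 in Get1 +/+ skin. With this ratio as a covariate the log2 changes of 1415800_at, 1438650_x_at and 1438945_x_at were -0.38, -0.45 and -0.33, all with an adjusted p of 0.981 (limma).

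The Gja1 probe set 1415801_at differed more. It read 2224, 4894 and 3345 in Get1 -/- skin, against 5122, 7699 and 5369 in Get1 +/+ skin, and the genotypes did not overlap. Its log2 change was -0.85 ± 0.28 (SE), with a 95% interval from -1.48 to -0.22 and an adjusted p of 0.737 (limma). Compared within arrays, the log2 changes of the 4 bright Gja1 probe sets exceeded its own by 0.65 to 0.72, and each of these 4 differences reached the exact permutation p of 0.1, the smallest the design allows (15 pairs of Gja1 probe sets compared, not adjusted). Of the 9 connexin probe sets 2, namely 1437992_x_at and 1415801_at of Gja1, had all Get1 -/- arrays below all Get1 +/+ arrays, against 6.51% of all kept probe sets. After median centring both overlapped (exact permutation p = 0.4 and 0.2), and after quantile normalization 1437992_x_at did (exact permutation p = 0.3).

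The dimmest Gja1 probe set, 1438973_x_at, read 409, 62.4 and 87.1 in Get1 -/- skin, against 493, 104 and 653 in Get1 +/+ skin. Its highest value was 10.5 times its lowest, where the other 5 Gja1 probe sets varied by between 1.21 and 3.46 times. Get1 -/- replicate 1 and Get1 +/+ replicates 1 and 3 were high, and the other 3 arrays, from both genotypes, were low. Its log2 change of -1.30 ± 0.82 (SE) was the most negative of the 9 and had the widest interval, from -3.16 to 0.56. In probe set names of this array the ending x_at marks probes that can match more than 1 transcript, and 4 of the 6 Gja1 probe sets carry it.

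**Figure D2:**
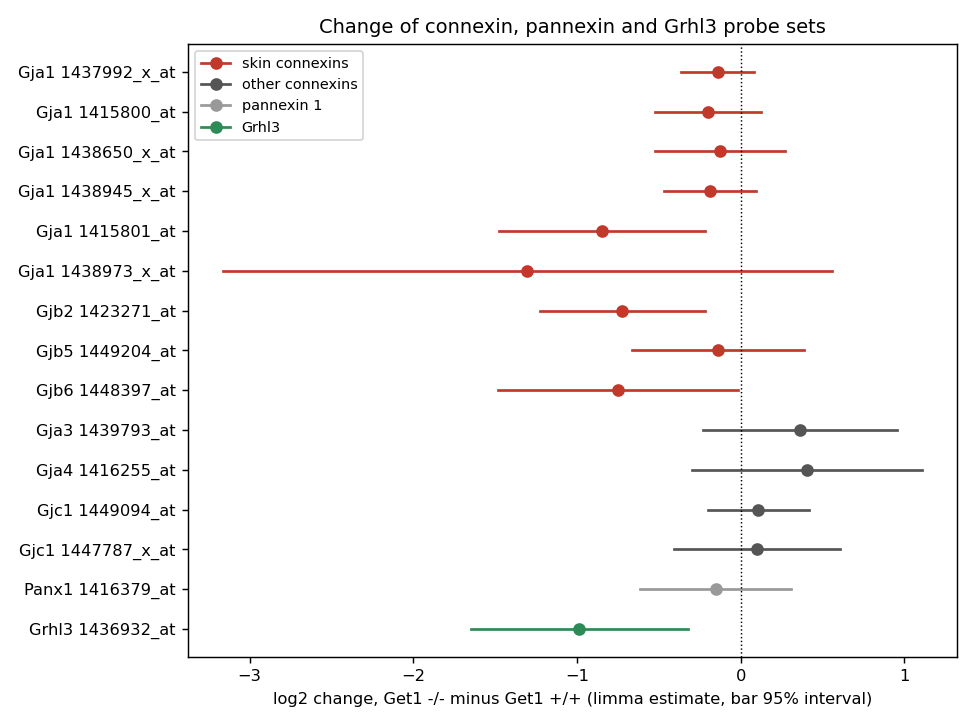
Log2 change of each probe set in Get1 -/- minus Get1 +/+ skin (point, limma estimate) with its 95% interval (bar) for the 9 connexin probe sets, the kept probe sets of other connexins and Panx1, and Grhl3. The intervals of Gjb2, Gjb6 and Gja1 1415801_at lie below 0 before adjustment, as does that of Grhl3, and those of Gjb5 and the other connexins include 0.

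Changes of the 4 genes were then compared within arrays, each gene by its brightest kept probe set (6 pairs, exact permutation, Benjamini-Hochberg over the pairs). The log2 signal of Gjb2 minus that of Gjb5, each centred on its own mean over 6 arrays, was -0.27, -0.20 and -0.41 in Get1 -/- skin, against 0.36, 0.18 and 0.34 in Get1 +/+ skin. Gjb2 was thus lower relative to Gjb5 in each Get1 -/- array than in any Get1 +/+ array, a difference of -0.58 (exact permutation p = 0.1, adjusted p = 0.4), and omitting any array left it between -0.64 and -0.52. Gjb6 differed from Gjb5 by about as much on average, and Gjb5 minus Gjb6 came to 0.61, but the genotypes overlapped (exact permutation p = 0.2). Gjb2 and Gjb6 differed in their change by 0.028 (exact permutation p = 0.8), with a sign that turned when any of 3 arrays was left out (-0.17 without Get1 -/- replicate 1, the lowest). Gja1 minus Gjb2 came to 0.58 (exact permutation p = 0.2), Gja1 minus Gjb6 to 0.61 (exact permutation p = 0.3) and Gja1 minus Gjb5 to -0.0028 (exact permutation p = 1). With Gja1 taken as the mean of its 6 probe sets these 3 differences came to 0.26, 0.28 and -0.33 (exact permutation p = 0.5, 0.7 and 0.4), and without Get1 -/- replicate 1 Gja1 minus Gjb6 came to 0.28. None of the 6 pairs could pass a threshold of 0.05 with 3 arrays per genotype.

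Several connexin probe sets shared an order of arrays within a genotype. In Get1 -/- skin, replicate 2 was the highest of the 3 arrays and replicate 1 the lowest for Gjb2, Gjb5, Gjb6 and Gja1 1437992_x_at, 1415800_at and 1415801_at. The order differed for Gja1 1438650_x_at and 1438945_x_at, which were lowest in replicate 3. Gja1 1438973_x_at went the other way, with replicate 1 the highest and replicate 2 the lowest. In Get1 +/+ skin, replicate 2 was the highest for Gjb5, Gjb6 and Gja1 1415801_at, and replicate 3 for Gjb2. Granular keratinocyte markers (Lor, Flg, Ivl, Tgm1, Tgm3, Cdsn, Casp14 and Klk7, 8 of 8 kept) are genes of the last living epidermal layer. On average 7 of them were lower and 1 higher in Get1 -/- skin. Their summed signal was 32802, 66121 and 61683 in Get1 -/- skin, against 69783, 79644 and 71203 in Get1 +/+ skin. It was lowest in Get1 -/- replicate 1, the array with the lowest Gjb2, Gjb5, Gjb6 and Gja1 1415801_at. The sum did not follow every connexin on every array. Get1 +/+ replicate 1 lay above all Get1 -/- arrays for the sum, but below Get1 -/- replicates 2 and 3 for Gjb5. Whether the sum and the connexins vary together was not tested. In whole skin, fewer cells of a type and less RNA per cell cannot be told apart.

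**Figure D3:**
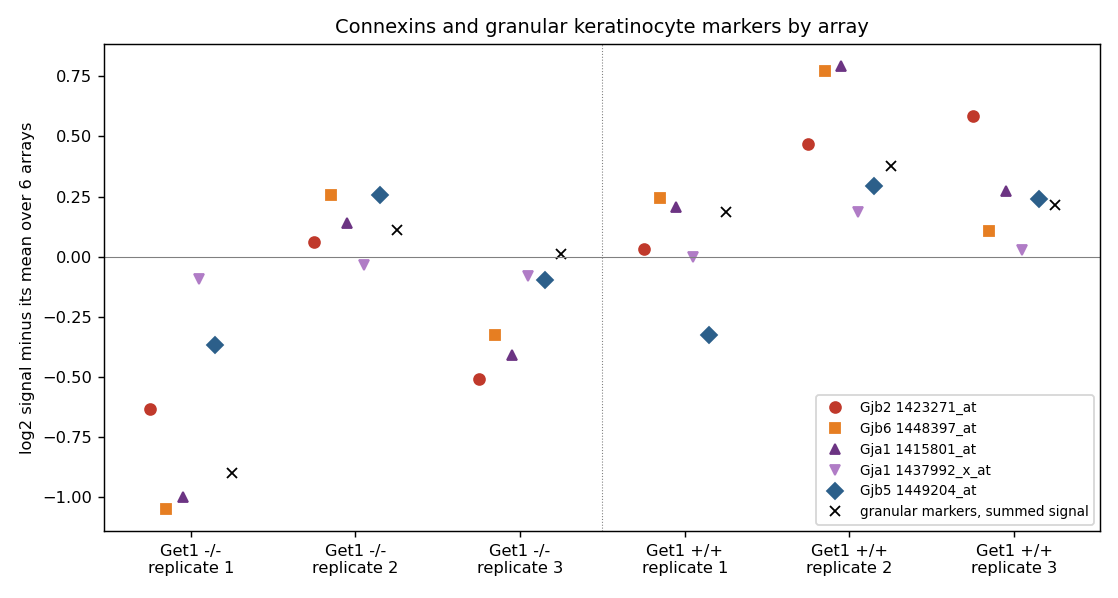
Log2 signal minus its mean over the 6 arrays for Gjb2, Gjb6, Gjb5, 2 Gja1 probe sets and the summed signal of 8 granular keratinocyte markers, with Get1 -/- arrays at the left and Get1 +/+ arrays at the right. Get1 -/- replicate 1 is the lowest array for each of them, and Gja1 1437992_x_at stays within 0.19 of its mean on every array.

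The sums of other marker lists stood as follows. The summed signal of suprabasal markers (9 of 10 kept, all but Krt2) ran from 142484 to 161187 in Get1 -/- and from 171339 to 185780 in Get1 +/+ skin, and that of basal markers (10 of 10 kept) from 64226 to 65999.9 in Get1 -/- and from 64562 to 77678 in Get1 +/+ skin. On average all 9 suprabasal and 9 of the 10 basal markers were lower in Get1 -/- skin. Keratins of hyperproliferative epidermis (Krt6a, Krt6b, Krt16 and Krt17, 4 of 4 kept) summed to between 20240 and 31527 in Get1 -/- and between 4909 and 8661 in Get1 +/+ skin. Of these 4, 3 were higher and 1 lower on average in Get1 -/- skin. The adjusted threshold was passed by 1 of them (limma), against 0.0266% of all kept probe sets. Among cell types other than keratinocytes that carry Gja1, skeletal muscle markers (12 of 12 kept) summed to between 116699 and 171713 in Get1 -/- and between 93766 and 148535 in Get1 +/+ skin. All 12 were higher on average in Get1 -/- skin, with a median log2 change of 0.43, and 0 passed the adjusted threshold (limma). Dermal fibroblast markers (9 of 9 kept) summed to between 139258 and 161376 in Get1 -/- and between 138457 and 167855 in Get1 +/+ skin, with 5 lower and 4 higher on average. Endothelial markers (8 of 8 kept) summed to between 6829 and 7963 in Get1 -/- and between 6261 and 6720 in Get1 +/+ skin, with 7 of 8 higher on average. Hair follicle markers (11 of 11 kept) summed to between 11500 and 17012 in Get1 -/- and between 13687 and 42080 in Get1 +/+ skin. All 11 were lower on average in Get1 -/- skin, with a median log2 change of -0.66, and 0 passed the adjusted threshold (limma). This median was near the changes of Gjb2 and Gjb6, and that of the granular markers was -0.54. By array, however, the hair follicle sum was 17012, 15878 and 11500 in Get1 -/- skin, against 13687, 22402 and 42080 in Get1 +/+ skin. Among Get1 -/- arrays it was highest in replicate 1, where Gjb2 and Gjb6 were lowest. Melanocyte markers (6 of 6 kept) summed to between 6743 and 8764 in Get1 -/- and between 7671 and 12808 in Get1 +/+ skin, with 5 of 6 lower on average. Macrophage and lymphoid markers (10 of 10 kept) summed to between 16916 and 17739 in Get1 -/- and between 12032 and 15829 in Get1 +/+ skin, with 8 of 10 higher on average. The genotypes did not overlap in this sum, nor in the granular, suprabasal, hyperproliferative keratin and endothelial sums. The sums of adipocyte, erythroid, mast cell and Schwann cell markers overlapped between the genotypes. Not every listed marker had a probe set or was kept, and the part of these shifts in the connexin values was not tested. The arrays were also cut in 2 sets at the largest gap in log2 beta-actin control signal, a rule that gives 2 sets with any data. The bright set was Get1 -/- replicate 1 (23267.5) and Get1 +/+ replicates 1 (24039) and 2 (24048). The other set was Get1 -/- replicates 2 (15104) and 3 (19080.5) and Get1 +/+ replicate 3 (16313). Within the bright set the log2 difference was -0.88 for Gjb2, -1.56 for Gjb6, -0.35 for Gjb5 and -1.50 for Gja1 1415801_at, and within the other set it was -0.81, -0.14, -0.16 and -0.41 for the same genes, each resting on 1 array of a genotype. For Gja1 1438973_x_at the differences had opposite signs, at 0.85 within the bright set and -3.15 within the other.

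Other members of the connexin family were read where a probe set carried their name alone. This gave 10 genes, of which 3 had a kept probe set. Gja3, which lies beside Gjb2, read 325, 189 and 267 in Get1 -/- skin, against 216, 176 and 202 in Get1 +/+ skin, a log2 change of 0.36 ± 0.26 (SE). Gja4 (Cx37), a connexin of vessel walls, read 604, 310 and 581 in Get1 -/- skin, against 426, 261 and 419 in Get1 +/+ skin, a log2 change of 0.41 ± 0.31 (SE). The brighter probe set of Gjc1 (Cx45) read 1741, 1756 and 1911 in Get1 -/- skin, against 1739, 1633 and 1639 in Get1 +/+ skin, so that the genotypes did not overlap (as in 4.63% of kept probe sets in this direction), although the log2 change was 0.11 ± 0.13 (SE). Its other probe set changed by 0.10 ± 0.22 (SE). All 4 probe sets were therefore higher on average, and 0 of 4 passed, with adjusted p from 0.801 to 0.946 (limma). At an unadjusted p under 0.05 there were 0 of 4 in limma.

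Pannexins are a separate family of membrane channels, and keratinocytes make Panx1. Panx1 read 700, 482 and 509 in Get1 -/- skin, against 578, 572 and 711 in Get1 +/+ skin, a log2 change of -0.15 ± 0.20 (SE, adjusted p = 0.905 in limma). The 15 remaining connexin and pannexin probe sets fell below the filter, and none of their values exceeded 96.6 on any array.

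Proteins that assemble, anchor, phosphorylate or remove connexins were looked at next. They had 41 kept probe sets in 19 genes, of which 25 were lower and 16 higher in Get1 -/- skin, with a median log2 change of -0.088. In limma 0 of 41 passed, and at an unadjusted p under 0.05 there were 2 lower and 0 higher, near the 3.76% lower and 2.97% higher of all kept probe sets. The 4 genes with the smallest p were Csnk1d, a casein kinase that phosphorylates Cx43, Ctnnb1, the adherens junction protein beta-catenin, Tjp3, a zonula occludens scaffold, and Smurf2, a ubiquitin ligase. Csnk1d probe set 1449932_at read 1709, 1535 and 1657 in Get1 -/- skin, against 2223, 1873 and 2380 in Get1 +/+ skin, a log2 change of -0.40 ± 0.15 (SE, adjusted p = 0.737 in limma). Ctnnb1 probe set 1430533_a_at changed by -0.48 ± 0.20 (SE), Tjp3 by -0.42 ± 0.20 (SE) and Smurf2 probe set 1429046_at by -0.43 ± 0.21 (SE). All Get1 -/- arrays lay below all Get1 +/+ arrays for Tjp3 and for these probe sets of Csnk1d and Smurf2, and 7 of the 41 did so, against 6.51% of all kept probe sets. The other kept probe sets of Csnk1d, Ctnnb1 and Smurf2 were lower on average as well, with log2 changes down to -0.35 for Csnk1d, -0.27 for Ctnnb1 and -0.30 for Smurf2.

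The nearest measured genes on either side of the connexins in the RefSeq order were read for comparison. Cryl1, the nearest measured gene after Gjb6, read 561, 495 and 521 in Get1 -/- skin, against 488, 682 and 709 in Get1 +/+ skin, a log2 change of -0.24 ± 0.20 (SE). On the other side of the Gjb2 and Gjb6 pair lay Gja3, which was higher on average. Beside Gjb5, Gja4 was higher on average and Phc2 changed by -0.16 ± 0.16 (SE). Beside Gja1, Serinc1 changed by 0.20 ± 0.19 (SE) and Msl3l2 by -0.38 ± 0.54 (SE). None of them passed in limma.

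The genes whose 6 values lay closest to those of each connexin were ranked by the root mean square difference of centred log2 signals over the 6 arrays, among 11386 other genes. For Gjb2 these were Mocos (0.048), the molybdenum cofactor sulfurase, Acer1 (0.073), an alkaline ceramidase, and Marchf3 (0.082). For Gjb6 they were Rora (0.059), a nuclear receptor, Esyt3 (0.0999) and Yod1 (0.105). For Gjb5 they were Sphk1 (0.046), a sphingosine kinase, Plpp6 (0.061) and Lonp2 (0.067), and for the brightest Gja1 probe set Urm1 (0.020), Katna1 (0.031) and Gatad2b (0.032). Gjb2 itself varied by 0.452 about its mean, Gjb6 by 0.569, Gjb5 by 0.277 and this Gja1 probe set by 0.093. Between connexins the distances ran from 0.232 for Gja1 and Gjb5 to 0.496 for Gja1 and Gjb6, with 0.318 for Gjb2 and Gjb6 and 0.305 for Gjb2 and Gjb5.

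**Figure D4:**
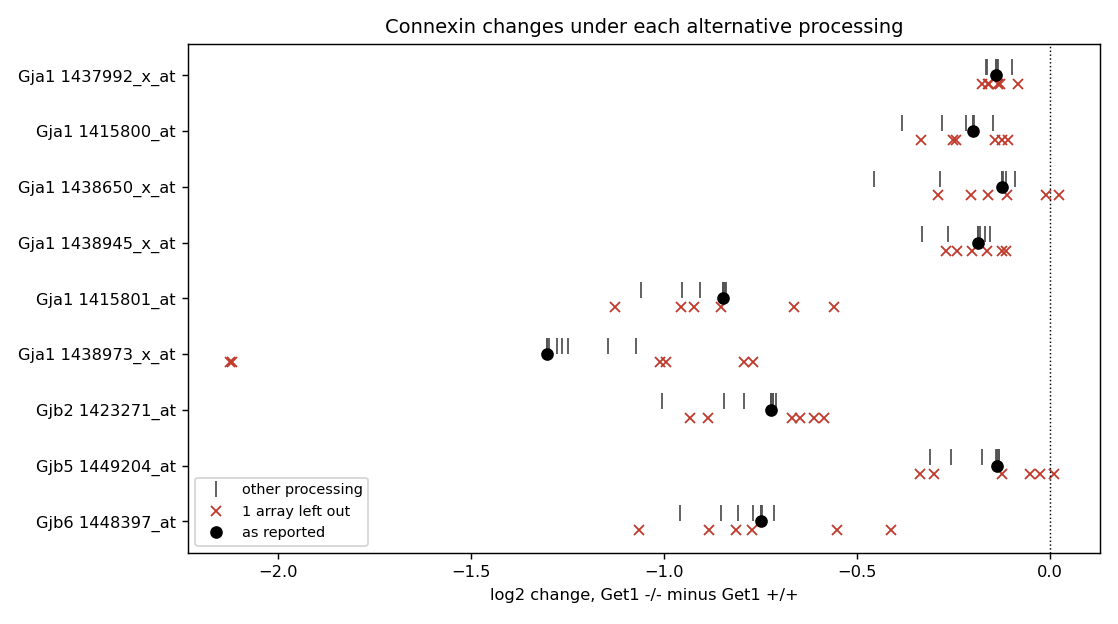
Log2 change (Get1 -/- minus Get1 +/+) of each connexin probe set as reported (black point), under other processing (grey ticks) and with 1 array left out (red crosses). Gjb5 reaches 0.011 and Gja1 1438650_x_at reaches 0.024 with 1 array left out, while all the other probe sets stay below 0 throughout.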

How the data were processed

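Per the labels' protocols, total RNA was amplified from an oligo(dT) primer into biotin-labelled cRNA and hybridised to 1 array per mouse. The deposited values are linear signal intensities from MAS5, per the submitters' processing notes, with no version, detection calls or genome build given. The trimmed mean (2% off each end) was 500.0 on every array, so no further scaling was applied. Of 45101 probe sets 64 are controls. Log2 values were fitted with limma 3.58.1 in R 4.3.3 (no pairing, two-sided, eBayes with its trend option) over the 22519 of 45037 probe sets that reached at least the median of mean log2, equal to a signal of 137, with Benjamini-Hochberg adjustment over all of them. The fit was tested on simulated data. The annotation gave a single symbol for 34945 probe sets, more than 1 for 932 and no symbol for 9160, and only the first kind was named. All 9 connexin probe sets matched the RefSeq table (GRCm38.p6), used for gene order and promoters alone. The number of arrays limits the precision.

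The genes and lists were chosen with earlier results of these data known. Named were all connexin probe sets, Grhl3, kept connexins and pannexins, the 4 partners with the smallest p, nearest neighbours, and the 3 genes closest to each connexin. The replicate numbers come from the labels, which name no shared litter or day. Deviations of same-numbered mice from their genotype means correlated at 0.133, 0.26 and 0.14, above the limit of 0.1 for treating them as pairs. The main fit and the exact permutation tests are unpaired all the same and ignore these pairs. With the replicate block the adjusted p of Gja1 1415801_at was 0.106 in place of 0.737 (limma). Over all kept probe sets 35 passed with the block and 6 without it. The comparison of connexin proteins planned at the outset was not made. Whether replicates came from separate litters is not stated. The p-values set a genotype difference against the spread between these animals, which may not be the spread between litters.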

Additional observations from a re-analysis of the deposited data

How the results depend on the processing

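No connexin probe set passed the threshold under any of the 17 alternatives: quantile normalization, median centring, no filter, an offset of 37.6, a filter at percentile 70, eBayes without trend, array weights, the replicate block, beta-actin control terms (2), 1 probe set per gene, and each of the 6 arrays left out. At an unadjusted p under 0.05 (limma) between 2 and 4 did, where the share of all tested probe sets ran from 3.09% to 14.3%. Counts stayed at 0 for the other connexins and pannexins (0 to 1 unadjusted) and for the partners (0 to 9 unadjusted) too, the 9 coming without Get1 +/+ replicate 1, the setting of the 14.3%. The closest approach was Gja1 1415801_at with the replicate block (adjusted p = 0.106, limma), where Gjb2 had 0.232 and Gjb6 0.311, and the block changed no call among these genes. Over those alternatives the adjusted p of Gjb2 ran from 0.152 to 0.997 and its log2 change from -1.01 to -0.59. With 1 array left out, Gjb5 ran from -0.34 to 0.011 and Gja1 1438650_x_at from -0.29 to 0.024, both crossing 0. Gjb6 ran from -1.06 to -0.41, Gja1 1415801_at from -1.13 to -0.56 and Gja1 1438973_x_at from -2.13 to -0.77. Of 147 recomputed connexin values 145 kept their direction. For differences between genes, Gja1 minus Gjb5 ran from -0.14 to 0.16 and Gjb2 minus Gjb6 from -0.17 to 0.27 with 1 array left out, and quantile normalization turned Gja1 minus Gjb5 to 0.044. The cause of these turns was not tested. Over all kept probe sets 6 passed in the unpaired fit, 35 with the replicate block, 13 with median centring, 1 with the beta-actin 3′ to 5′ ratio as a covariate, and 25 without Get1 +/+ replicate 1. With 3 arrays per genotype and no detection calls, small differences at low signal were not detectable. Larger differences at high signal did not pass either, such as Gja1 1415801_at at 0.56 times (adjusted p = 0.737, limma).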
